A study of Homo sapiens with 6 samples.

Results

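The genes described here are those of the mitochondrial ribosomal proteins, taken as the symbols that start with MRPL or MRPS, go on with a number and end with at most 1 letter. Of 28008 genes in the count table, 78 had such a symbol, and 77 of these held at least 10 counts in every library. The member just inside that minimum was MRPL23, with between 37 and 82 counts, and the next was MRPL54, with between 64 and 116. The symbol just outside was MRPS24, with 0 counts in 5 libraries and 2 counts in DOX-positive replicate 3. By annotation MRPS24 shares exon sequence on the same strand with the protein-coding gene URGCP-MRPS24. Reads of MRPS24 could thus have been left out or given to that gene, and its low counts need not mean a low level. Of the 77 members, 51 encode proteins of the large subunit and 25 of the small subunit, and MRPS36 has since been assigned to another mitochondrial complex.

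Transcripts were counted by RNA-Seq in DU-145-DR/tet-MUC1shRNA cells. DU-145 is an established line from a human prostate cancer, DR marks its derivative resistant to docetaxel (DTX), and the resistant cells carry a short hairpin RNA against MUC1 under tetracycline control. The DOX-negative group was 3 cultures given 0.1% DMSO as vehicle, and the DOX-positive group was 3 cultures of the same resistant line given 500 ng/ml doxycycline (DOX) to switch the hairpin on. In the treatment labels only the DOX-positive cultures are tied to the hairpin, while the DOX-negative ones are tied to DTX resistance; the titles differ in DOX state alone, so both groups were read as 1 line. Libraries with DOX and a control hairpin, or with DOX and no hairpin, were not analysed here, so silencing of MUC1, other targets of the hairpin and exposure to DOX cannot be told apart in any difference below. The question put to the members is whether their transcripts moved with DOX.

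Mitochondria carry their own ribosomes, which translate the few messenger RNAs of the mitochondrial genome, all of them for subunits of the respiratory chain and ATP synthase. Every protein of these ribosomes is encoded in the nucleus, made in the cytosol and imported, and many descend from proteins of the bacterial ribosome while others were added in mitochondria. Tetracyclines such as DOX bind the small subunit of bacterial ribosomes near the decoding centre and can also slow translation by the mitochondrial ribosome.

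Totals ranged from 15092691 to 23243713 counts a library, where 3 counts, taken as the floor of detection, came to between 0.129 and 0.199 CPM (counts scaled to a common library size with TMM factors). MUC1 stood at 21.3, 24.8 and 19.7 CPM in the DOX-negative libraries and at 3.27, 3.87 and 4.44 CPM in the DOX-positive libraries, so the groups did not overlap. Its log2 fold change was -2.52 (SE 0.146, adjusted p = 4.47e-11, edgeR quasi-likelihood test), in the direction that its silencing by the hairpin would give. The 4 epithelial markers KRT8, KRT18, EPCAM and CDH1 were all present, and all 4 were higher with DOX, by between 0.81 and 1.43 on the log2 scale, and their part in the members' values was not tested. Of 8 markers of leukocytes, endothelium, fibroblasts and neuroendocrine cells, 6 fell below the expression filter, and CD3E and CHGA were at 0 in every library. The neuroendocrine marker SYP, also below the filter, held 2, 6 and 8 counts without DOX and 12, 9 and 11 with it. The fibroblast markers COL1A1 (mean 4.13 CPM without DOX and 4.41 with it) and COL3A1 (0.587 and 0.582 CPM) passed the filter and were not called. In bulk RNA, fewer cells of a kind and less RNA per cell cannot be told apart.

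Most members kept their level within narrow limits. Of the 77 members, 9 passed an adjusted p of 0.05 (11.7%), 5 of them lower and 4 higher with DOX, where 26.7% of the 14292 genes tested passed, 13.7% lower and 13.0% higher. The members' share was thus below that of all genes, a difference that was not tested. The median log2 fold change of the members was 0.035, with 34 members below 0 and 43 above, beside a median of -0.0034 over all genes. Changes ranged from -0.72 for MRPL42 to 0.44 for MRPL23, and 76 of the 77 lay within 0.5 of 0, as did 12140 of the 14292 genes tested. The 95% interval itself lay within 0.5 of 0 for 71 members, so for most members a change of that size lay outside the interval. The same held for 7954 of the 14292 genes, so small changes were common outside the members too. At an unadjusted p under 0.05 the count was 19 of 77 members, beside 37.9% of all genes tested. DESeq2 called 9 members, all of them shared with edgeR, beside 25.0% of the 14101 genes to which it gave an adjusted p. The members' median ran from 0.013 to 0.067 with each library left out in turn, and was 0.00021 when library totals were the scaling.

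**Figure D1:**
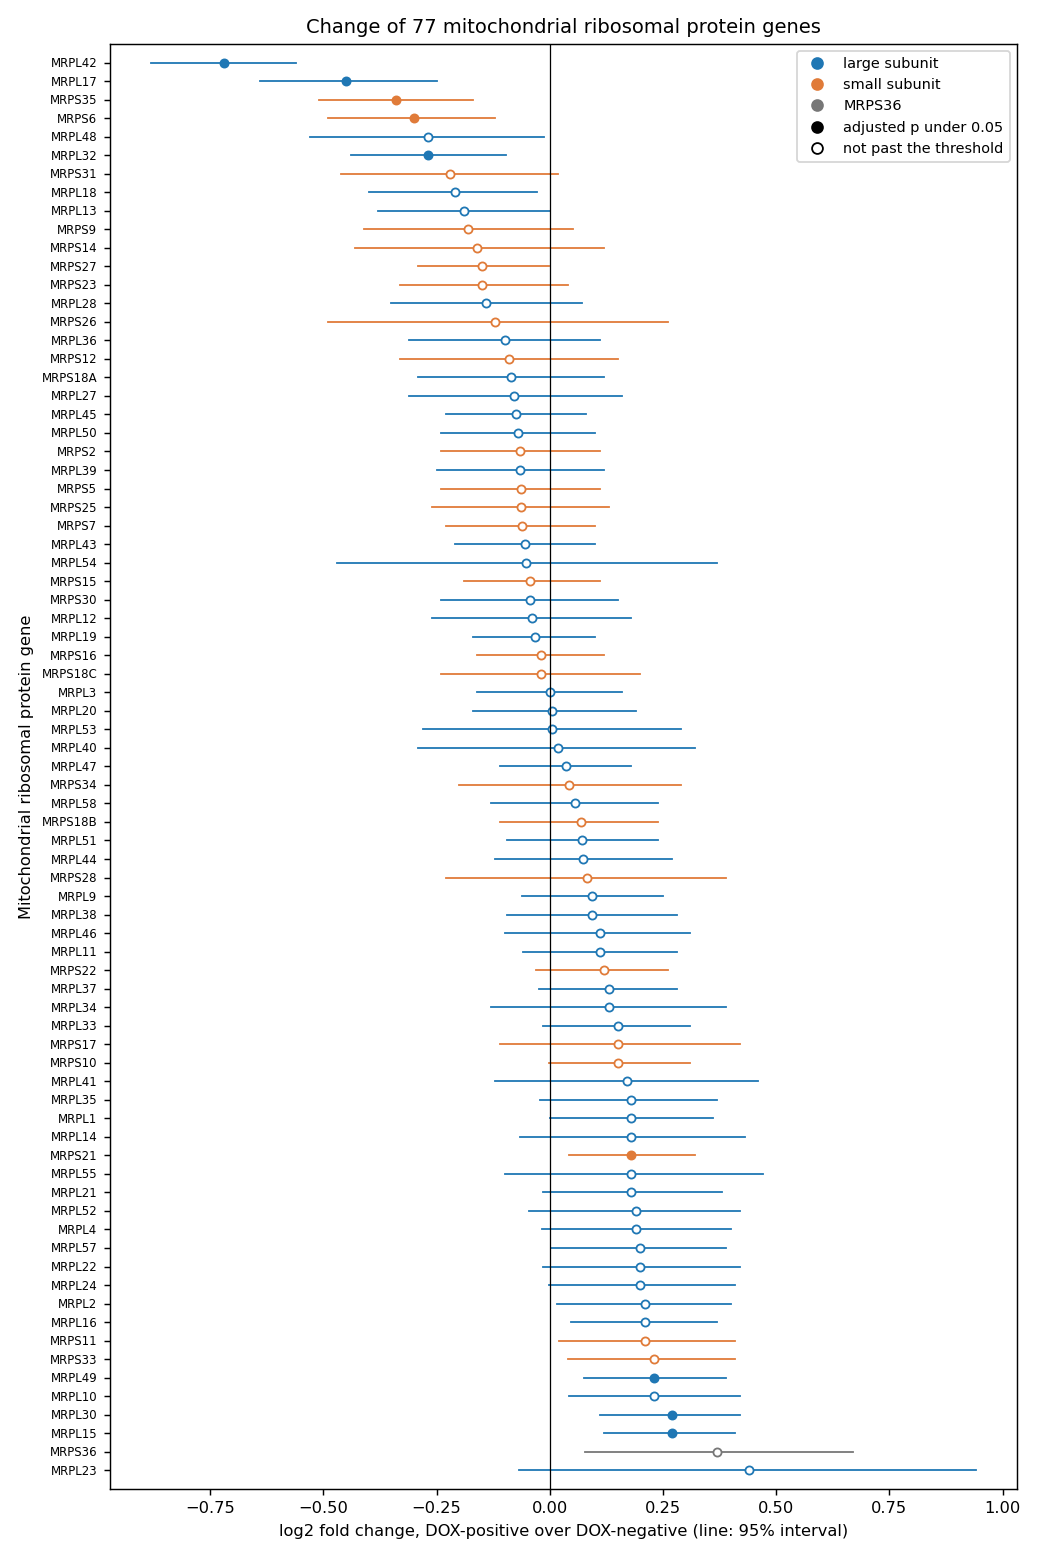
Log2 fold change (x axis, DOX-positive over DOX-negative) of each of the 77 members (y axis, ordered by change), with a line for the 95% interval. Filled points are the 9 members past an adjusted p of 0.05, and colour gives the subunit. MRPL42 lies at -0.72, apart from all others, and the points otherwise run from -0.45 to 0.44.

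The count of 4 higher members depended on single libraries, since it came to 8 when DOX-negative replicate 3 was left out, 2 when DOX-negative replicate 1 was, and 1 when DOX-positive replicate 3 was. The count of 5 lower members ran from 4 to 6 when each library was left out in turn. By CPM, the 3 DOX-positive libraries lay below the 3 DOX-negative ones for 10 members and above them for 12, and the same held for 20.2% and 19.5% of all genes tested. Summed over the 77 members, the libraries held 3490, 3410 and 3660 CPM without DOX and 3490, 3510 and 3500 CPM with it. The groups overlapped in this sum, whose mean with DOX was 99.6% of that without.

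MRPL42, which encodes a large-subunit protein with no bacterial counterpart, fell most. It stood at 267, 222 and 280 CPM in the DOX-negative libraries and at 153, 168 and 146 CPM in the DOX-positive libraries. All DOX-positive values lay well below all DOX-negative ones, and the mean with DOX was 60.8% of that without. The log2 fold change was -0.72 (SE 0.0779, 95% interval -0.88 to -0.56, adjusted p = 4.7e-07), and the call held under all 16 alternative settings. MRPL42 alone held between 6.51% and 7.65% of the summed member CPM without DOX and between 4.18% and 4.77% with it. Without MRPL42, the other 76 members summed to 3260 ± 101 CPM in the DOX-negative group and 3350 ± 9.18 CPM in the DOX-positive group (mean ± SD, 3 libraries each). In GENCODE 29 (GRCh38) the gene lies on the plus strand at chr12:93467488-93516213, shares exon sequence with the small RNA pseudogene RN7SL737P on the same strand, and has 4 pseudogenes of its name, between which reads could be split.

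MRPL17, a large-subunit protein at the exit of the peptide tunnel, was at 36.7, 31.1 and 35.5 CPM without DOX and at 26.3, 25.2 and 24.2 CPM with it. The groups did not overlap, and its log2 fold change was -0.45 (SE 0.0931, adjusted p = 0.00104). Its gene lies on the minus strand at chr11:6680782-6683401 and shares exon sequence with no other annotated gene. MRPS35, a mitochondria-specific protein of the small subunit, was at 48.8, 43.6 and 48.4 CPM without DOX and at 35.3, 37.5 and 38.7 CPM with it. Again no value of a group lay within the other, with a log2 fold change of -0.34 (SE 0.0832, adjusted p = 0.00412). It lies on the plus strand at chr12:27710773-27756295. Both calls held whichever library was left out, with a highest adjusted p of 0.0115 for MRPL17 and 0.0298 for MRPS35.

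MRPS6, the counterpart of bacterial S6 on the small subunit, was at 39.5, 46.5 and 43.0 CPM without DOX and at 37.4, 33.0 and 34.2 CPM with it. The groups were close but did not overlap, and the log2 fold change was -0.30 (SE 0.0882, adjusted p = 0.0139). The call was lost without DOX-negative replicate 2, the highest library (-0.24, adjusted p = 0.0726). MRPS6 (plus strand, chr21:34073224-34143034) shares exon sequence on the same strand with SLC5A3, a transporter of myo-inositol, so reads of the 2 genes could be mixed. MRPL32, a large-subunit protein that the m-AAA protease trims after import, was at 37.8, 38.6 and 38.4 CPM without DOX and at 32.3, 31.8 and 31.1 CPM with it. The libraries of each group lay close together and the groups were apart. Its log2 fold change was -0.27 (SE 0.0825, adjusted p = 0.0194), and the call was lost when DOX-negative replicate 1 (adjusted p = 0.0539), DOX-negative replicate 3 (0.0513) or DOX-positive replicate 3 (0.0702) was left out. The gene lies on the plus strand at chr7:42932200-42948958, opposite PSMA2, with which it shares exon sequence.

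The 4 members that rose did so by 0.18 to 0.27 on the log2 scale. On the deposited TPM scale, where the median of all genes was -0.27 on log2(TPM + 1), all 4 were below 0 without passing. MRPL15, the counterpart of bacterial L15, was at 99.5, 101 and 103 CPM without DOX and at 120, 114 and 131 CPM with it. The groups did not overlap, and the log2 fold change was 0.27 (SE 0.0686, adjusted p = 0.00595), a call lost without DOX-positive replicate 3 (0.21, adjusted p = 0.0562). MRPL30, the counterpart of bacterial L30, was at 67.3, 64.1 and 65.6 CPM without DOX and at 76.5, 84.3 and 75.9 CPM with it. Its groups were apart as well, with a log2 fold change of 0.27 (SE 0.0729, adjusted p = 0.00935) that passed whichever library was left out (highest adjusted p = 0.0368). MRPL30 shares exon sequence on the same strand with 2 annotated protein-coding genes, AC079447.1 and AC092587.1.

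MRPL49, a mitochondria-specific protein of the large subunit, was at 54.4, 55.0 and 60.8 CPM without DOX and at 69.5, 64.7 and 65.7 CPM with it. The lowest DOX-positive library stood above the highest DOX-negative one, with a log2 fold change of 0.23 (SE 0.0762, adjusted p = 0.0269). The call was lost when DOX-negative replicate 1 (adjusted p = 0.127), DOX-negative replicate 2 (0.0731), DOX-positive replicate 1 (0.115) or DOX-positive replicate 3 (0.0575) was left out. MRPL49 lies opposite FAU and SYVN1, with both of which it shares exon sequence. MRPS21, the counterpart of bacterial S21, was at 79.3, 81.9 and 82.6 CPM without DOX and at 92.6, 91.2 and 93.0 CPM with it. The groups were apart, but the log2 fold change of 0.18 (SE 0.0673, adjusted p = 0.0489) was at the threshold and did not pass once any 1 library was left out (adjusted p between 0.0543 and 0.175). MRPS21 has 8 annotated pseudogenes of its name, the most of the 9 members called.

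**Figure D2:**
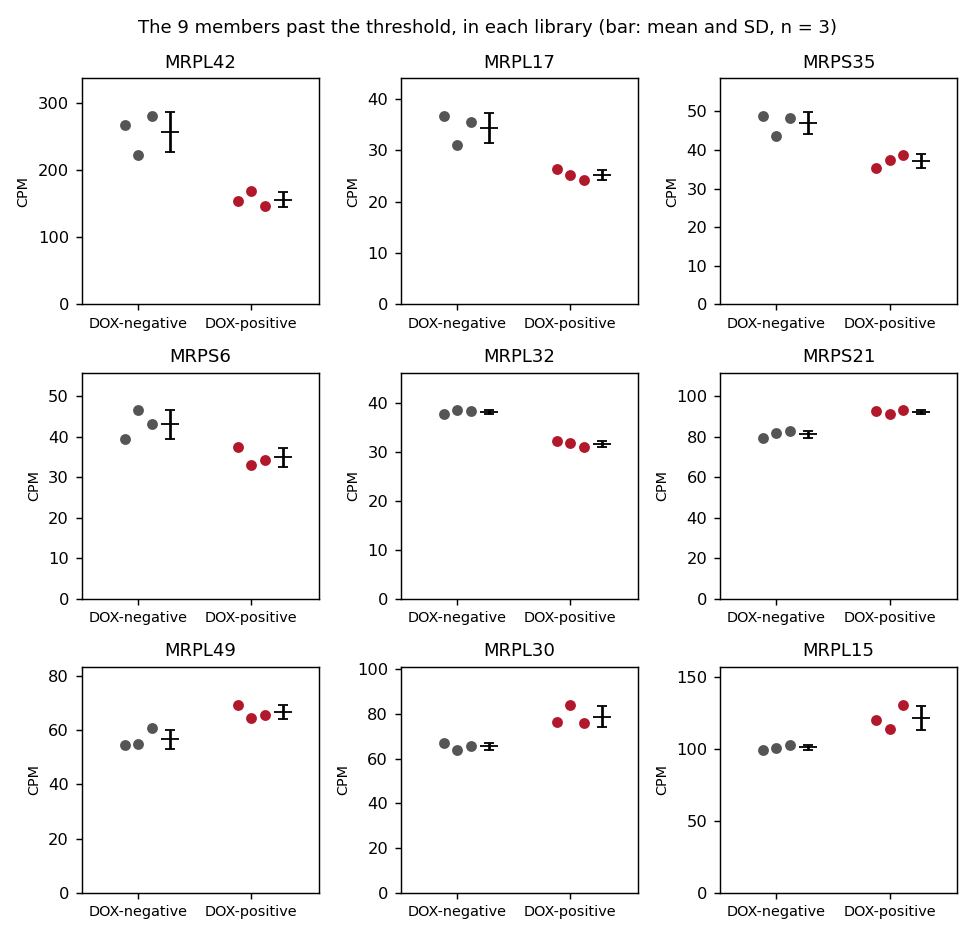
CPM (y axis, from 0) of the 9 members past the threshold in each of the 3 DOX-negative libraries (grey) and 3 DOX-positive libraries (red), with bars for the mean and SD. The groups do not overlap in any panel, and the gap is widest for MRPL42, at 256 ± 30.5 CPM without DOX and 156 ± 10.8 CPM with it.

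An earlier scan of these same libraries had marked the sequence of 7 bases ATCAGTA in transcripts that fell with DOX, so its place in the members is a description and not independent support. Of the 77 members, 7 held it in a coding transcript of the GENCODE 29 basic set, in the transcript with the longest 3′UTR in each case. In 6 of these it lay in the 3′UTR, and in MRPS7 it lay in the coding sequence, across an exon junction. The sites in the 3′UTRs of the members with it are shown with 12 bases before and 11 after, from GRCh38 on the transcribed strand, and capitals mark the 7 bases. MRPL17 holds the site 28 bases after the stop codon (minus strand, chr11:6682073-6682102), MRPS35 51 bases after it (plus strand, chr12:27755489-27755518), MRPL32 92 bases after it (plus strand, chr7:42937656-42937685) and MRPS31 179 bases after it (minus strand, chr13:40729176-40729205). The nearest of 3 sites in MRPL42 lies 1837 bases after the stop (plus strand, chr12:93503046-93503075), and the nearer of 2 in MRPL50 lies 1795 bases after it (minus strand, chr9:101388654-101388683).
MRPL17: ctgcagcccttaATCAGTAcccatgatcac
MRPS35: atgatatatgtgATCAGTAtctaatttgat
MRPL32: tgtttttaaatcATCAGTAtagtttaacac
MRPS31: tggagaaaaatcATCAGTAttcataggttc
MRPL42: ctgttatccaccATCAGTAacattttatga
MRPL50: aactgcacatccATCAGTAcctctagaggg

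All 7 members with these 7 bases had a log2 fold change below 0, under all 16 alternatives too, with a median of -0.27, and 4 of them were called lower and 0 higher. The 4 were MRPL42, MRPL17, MRPS35 and MRPL32, that is, 4 of the 5 lower members. Of the other 70 members, 1 was called lower (MRPS6) and 4 higher, with a median of 0.07. MRPS31 (-0.22, SE 0.115, adjusted p = 0.167), MRPL50 (-0.07, SE 0.0829, adjusted p = 0.579) and MRPS7 (-0.061, SE 0.0798, adjusted p = 0.618) held the sequence and did not pass. These 3 were named after their values were seen. In MRPL42 the sites lay in 1 of 5 coding transcripts, one whose 3′UTR has 14992 bases, and the counts do not tell which transcript the reads came from. By the same rule, 2090 of 12392 tested genes with a coding transcript held the sequence, of which 28.2% were called lower and 10.6% higher, while of the 10302 without it 12.3% were lower and 14.5% higher. The principal transcript of MUC1 also holds it, outside the 3′UTR.

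**Figure D3:**
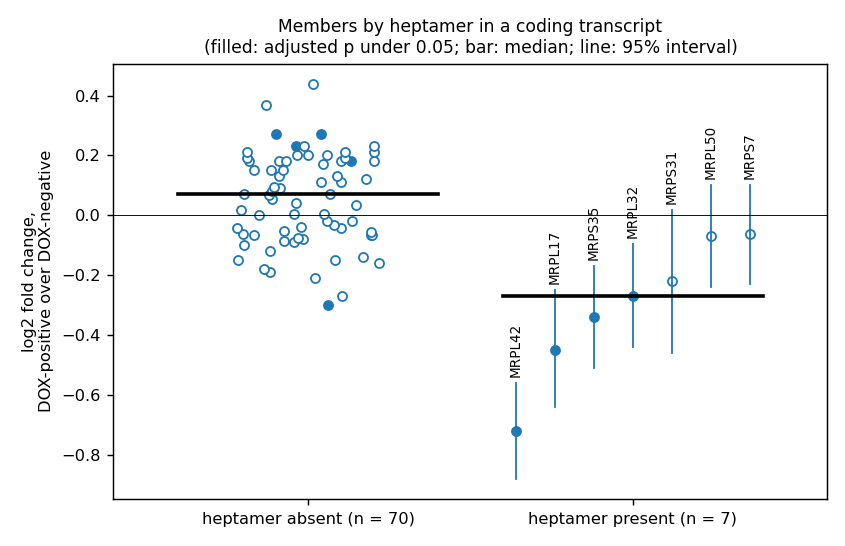
Log2 fold change (y axis, DOX-positive over DOX-negative) of the 70 members without and the 7 members with the 7-base sequence in a coding transcript. Filled points passed an adjusted p of 0.05, horizontal bars are medians, at 0.07 and -0.27, and vertical lines are 95% intervals, drawn for the 7 named members, all of which lie below 0.

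By subunit, 3 of the 51 large-subunit members were lower and 3 higher (5.88% each). Of the 25 small-subunit members 2 were lower (8.0%) and 1 higher (4.0%), beside 13.7% and 13.0% of all genes tested. The median log2 fold change was 0.073 over the large subunit, with 33 members above 0, and -0.061 over the small subunit, with 16 members below 0. Within the large subunit, 29 members with a bacterial counterpart had a median of 0.13 (2 lower, 2 higher), and 21 mitochondria-specific ones had a median of 0.017 (1 lower, 1 higher). Within the small subunit, the medians were -0.052 over 14 members with a counterpart and -0.089 over 10 classed as mitochondria-specific. MRPL55 and MRPS28 were left unclassified. MRPS18A and MRPS18B, though related to bacterial S18, were classed as mitochondria-specific. With each library left out in turn, the large-subunit median ran from 0.045 to 0.11 and the small-subunit median from -0.052 to -0.025. The difference between the subunits was not tested. On deposited TPM both were below 0, at -0.30 and -0.42 on log2(TPM + 1). Summed CPM of the small subunit stayed between 1090 and 1120 in all 6 libraries, and that of the large subunit between 2290 and 2530, with both groups overlapping.

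Among members assigned here to the stalk, the decoding centre, the exit tunnel or the central protuberance, only MRPL17 was called. Most members were assigned to none of these places, among them all the other called members. The stalk recruits translation factors, and its 5 members had a median of 0.0058 with 0 called: MRPL12, the counterpart of bacterial L7/L12, changed by -0.04 (SE 0.104), MRPL11 by 0.11 (SE 0.0815), and MRPL10, which anchors the stalk, by 0.23 (SE 0.0919, adjusted p = 0.0643). MRPL10 passed without DOX-negative replicate 3 (0.31, adjusted p = 0.0348). MRPS12, which lines the decoding centre, changed by -0.09 (95% interval -0.33 to 0.15). Of 6 members at the exit tunnel, MRPL17 was called and MRPL45, which tethers the ribosome to the inner membrane, changed by -0.074 (95% interval -0.23 to 0.079). The central protuberance, which contacts the small subunit, had 6 members with a median of -0.031 and 0 called. MRPL58, a peptidyl-tRNA hydrolase built into the large subunit, changed by 0.055 (95% interval -0.13 to 0.24).

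Other members with a known place or task did not pass either. MRPL44, a protein with an RNase III fold, changed by 0.073 (SE 0.0947), MRPL41 by 0.17 (SE 0.14) and MRPL37 by 0.13 (SE 0.073). MRPS30, which sits on the large subunit in spite of its name, changed by -0.043 (SE 0.0951). The 3 proteins related to bacterial S18, of which MRPS18A belongs to the large subunit, changed by -0.085 (MRPS18A), 0.069 (MRPS18B) and -0.019 (MRPS18C). MRPS36, now known as an adaptor of the 2-oxoglutarate dehydrogenase complex, changed by 0.37 (SE 0.142, adjusted p = 0.0561) with groups that did not overlap, and passed without DOX-negative replicate 2 (0.48, adjusted p = 0.0318). MRPL23, the member with the lowest counts, changed by 0.44, but its SE of 0.242 left an interval from -0.067 to 0.94.

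Levels of different members can be compared only per length, on the deposited TPM scale. Mean TPM over the 6 libraries ran from 2.47 for MRPL23 to 249 for MRPL33, with a median of 33.7 over the members. The highest were MRPL33, the counterpart of bacterial L33 (249 TPM, rank 1 in every library), MRPL51 (199 TPM, rank 2 in every library) and MRPS15 (152 TPM, rank 3 or 4). The lowest were MRPL23 (2.47 TPM, rank 77 in every library), MRPS36 (4.57 TPM) and MRPS18B (5.28 TPM), where MRPS36 and MRPS18B shared ranks 75 and 76. The low place of MRPS18B is uncertain. Its mean CPM was 46.6 without DOX and 48.9 with it, near MRPL16 (48.9 and 56.6 CPM), whose mean was 65.5 TPM. The GENCODE transcripts used here have 1532 bases for MRPS18B and 1182 for MRPL16, and the lengths behind the deposited TPM are not given. Spearman's rho of the members' TPM between libraries was between 0.977 and 0.992 over 77 genes of the same libraries, so the order hardly moved. MRPL42 was at rank 11 by mean TPM, with ranks between 6 and 24 over the libraries. In each library between 34.4% and 64.4% of TPM fell on 5 short noncoding RNAs, so these values serve for the order within a library and not for the change with DOX. The summed TPM of the large subunit was between 2.44 and 2.54 times that of the small subunit.

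Of 5 mitoribosomal proteins whose symbols do not follow the pattern 0 passed, where 26.7% of all genes tested did. Their median log2 fold change was 0.044, or -0.091 without DOX-positive replicate 3 and -0.035 without DOX-negative replicate 1. DAP3, a GTP-binding protein of the small subunit, changed by 0.14 (SE 0.0684, adjusted p = 0.127), and passed without DOX-positive replicate 2 (0.19, adjusted p = 0.0446). PTCD3, at the entry of the messenger RNA channel, changed by -0.059 (SE 0.069), CHCHD1 by -0.071 (SE 0.104), AURKAIP1 by 0.044 (SE 0.133) and GADD45GIP1 by 0.08 (SE 0.158).

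Of 13 factors of mitochondrial translation tested 2 were lower (15.4%) and 1 higher (7.69%), beside 13.7% and 13.0% of all genes tested. The median log2 fold change of the 13 factors was 0.03. The median was -0.016 with DOX-negative replicate 2 left out, -0.014 with DOX-negative replicate 3 left out and -0.025 with DOX-positive replicate 1 left out. The higher count was 0 with DOX-positive replicate 3 or DOX-negative replicate 1 left out, and 2 with DOX-negative replicate 3 left out. MTIF3, an initiation factor that keeps the subunits apart before a start, was at 22.6, 19.3 and 20.0 CPM without DOX and at 10.8, 12.8 and 11.6 CPM with it. The groups were far apart, with a log2 fold change of -0.82 (SE 0.116, adjusted p = 1.57e-05) that passed under all 16 alternatives. GFM2, which recycles ribosomes after a stop, was at 103, 99.1 and 92.9 CPM without DOX and at 69.0, 71.9 and 71.5 CPM with it (log2 fold change -0.47, SE 0.0702, adjusted p = 2.99e-05). Of 27 genes for assembly of the ribosome and modification of its RNA, 3 were lower and 3 higher (11.1% each), with a median of -0.056. Without DOX-negative replicate 2 the median was 0.016 and 1 was higher. Those whose call held whichever library was left out were MTERF3, needed for ribosome biogenesis (-0.49, adjusted p = 0.00179), MALSU1, which keeps the immature large subunit from joining (-0.41, adjusted p = 0.00268), and NSUN4, an rRNA methyltransferase (0.37, adjusted p = 0.00305).

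Of 20 genes of mitochondrial and general stress responses 7 were higher (DDIT3, ATF3, TRIB3, SESN2, GDF15, ALDH1L2 and HSPA9) and 1 lower (2 without DOX-positive replicate 3), with a median of 0.09. The higher genes were 35.0% of the list and the lower 5.0%, beside 13.0% and 13.7% of all genes tested. These differences in share were not tested. GDF15, a secreted stress cytokine, went from 1.43, 1.38 and 1.29 CPM to 3.31, 5.43 and 2.82 CPM (log2 fold change 1.5, SE 0.281, adjusted p = 0.000376). SESN2 rose by 1.31 (SE 0.0898) and ATF3 by 0.92 (SE 0.122), and both, like DDIT3 and TRIB3, are known as targets of the integrated stress response, which many stresses outside mitochondria also raise. The rise did not extend over the list. ATF4 (0.14), ATF5 (-0.19), ASNS (-0.0066), CHAC1 (0.035), PSAT1 (0.096) and PHGDH (0.093) did not pass. Neither did SHMT2 (0.043), MTHFD2 (0.087), PYCR1 (-0.096), HSPD1 (-0.17), LONP1 (-0.12) and CLPP (0.056). HSPE1, a chaperone of the mitochondrial matrix, was lower (-0.53, SE 0.129, adjusted p = 0.00387).

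Of 78 cytosolic ribosomal protein genes 8 were lower (10.3%) and 1 higher (1.28%), beside 13.7% and 13.0% of all genes tested. Their median log2 fold change was -0.044, where RPSA (-0.37) and RPL7 (-0.31) were among the lower and RPL15 (0.21) was the 1 called higher. The count of lower genes was 3 when DOX-negative replicate 1 or 3, or DOX-positive replicate 1 or 3, was left out, and 13 with library totals as the scaling. Many genes of this family have processed pseudogenes, so their counts are uncertain. Of 78 nuclear-encoded respiratory chain and ATP synthase subunits 4 were lower (5.13%), among them ATP5G2 (-0.29, adjusted p = 0.00571), and 3 higher (3.85%), with a median of -0.0044. The lower count was 7 with DOX-negative replicate 2 left out and 2 with DOX-negative replicate 1 or 3, or DOX-positive replicate 1 or 3, left out. The median was 0.028 with DOX-negative replicate 3 left out and 0.033 with DOX-positive replicate 2 left out. Each of the 3 higher calls was lost in at least 1 such fit.

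**Figure D4:**
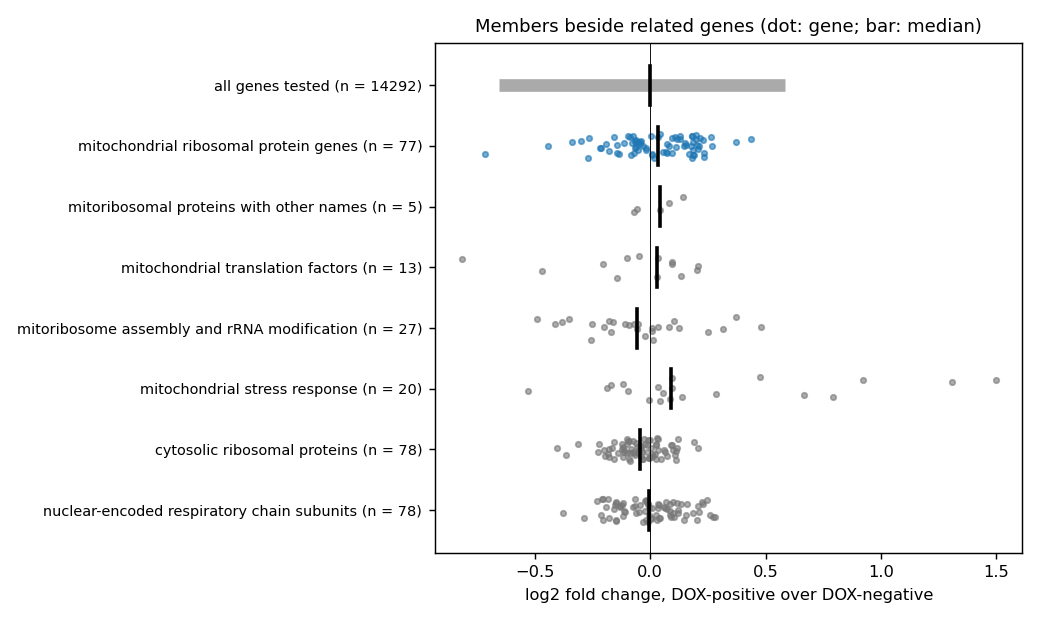
Log2 fold change (x axis, DOX-positive over DOX-negative) of the 77 members (blue) and of 6 related gene lists (grey), 1 dot a gene, with a black bar at the median; the grey band for all 14292 genes spans their 5th to 95th percentile. All medians lie between -0.056 and 0.09, and the members run from -0.72 to 0.44, while the stress genes reach 1.5.

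Promoters of 300 bases, from 250 before to 50 after the start, were matched by symbol to RefSeq (GRCh38.p14) for 68 of the 77 members. MRPL2, MRPL10, MRPL13, MRPL15, MRPL21, MRPL23, MRPL35, MRPS28 and MRPS36 had no entry. The members' promoters were searched on both strands for short motifs, which do not contain one another. The ETS motif CCGGAAG was found in 44.1% of the matched members, beside 21.7% of 10483 matched genes tested, and the YY1 motif AAGATGGC in 29.4% beside 6.45%. The NRF1 motif GCATGCGC was in 8.82% beside 6.25%, the E-box CACGTG in 13.2% beside 12.5%, and the GC box GGGCGG in 60.3% beside 77.2%. Over all 27305 genes of the promoter table the shares were 12.2% for ETS, 3.52% for YY1, 3.68% for NRF1, 8.77% for the E-box and 48.3% for the GC box. At least 1 of the ETS, NRF1 and YY1 motifs was in 43 of the 68 members (63.2%), beside 30.6% of the matched genes tested. Of the 5 lower members 0 held the ETS motif, 2 the YY1 motif and 2 the NRF1 motif, and of 3 matched higher members 2 held the ETS motif and 1 the YY1 motif. A match in these windows is a description of letters only.

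The members lie on 21 chromosomes, with at most 8 on any 1 of them. Over the 77 members, Pearson's r of the log2 fold change was 0.20 with the GC content of the transcript, -0.24 with the log2 of its length and -0.13 with the mean log CPM, given as descriptions across genes of the same 6 libraries. By annotation, 15 members share exon sequence with another gene on the same strand and 29 with one on the opposite strand, and 34 have at least 1 pseudogene of their name.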

How the data were processed

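The authors deposited whole-number counts per gene and TPM values for 6 poly(A)-selected, stranded libraries, 3 per group. Per the labels, the submitters' processing notes name STAR, DESeq2 and GRCh38 (hg38); the annotation and the strand setting of the counting are not given in the sources used here. The deposited TPM values sum to the same total in each library. Mitochondrially encoded genes were not analysed here.

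Tests on the counts used edgeR 4.0.16 (under R 4.3.3): filterByExpr (14292 genes), TMM factors, glmQLFit and glmQLFTest with the group as the only term, two-sided, and Benjamini-Hochberg adjustment over all genes tested, with a threshold of 0.05. All 77 members passed the filter. The procedure was checked on simulated counts with planted changes of at least 0.5 on the log2 scale. Every called member except MRPL42 changed by less, so the check does not cover changes of their size. Alternatives were no filter or a minimum of 10 counts in every library, library totals or RLE factors as the scaling, thinned counts, the replicate number as a block, DESeq2 1.42.0, limma 3.58.1 on log2(TPM + 1), on log2(TPM + 0.1) and on TPM rescaled without 5 short noncoding RNAs (genes above 0 in at least 3 libraries), and each library left out in turn. Nothing states that libraries came from separate experiments, so p-values measure the spread between these cultures, and 3 counts as a floor covers only counting error. Within groups, libraries differed beyond sampling noise (chi-square per degree of freedom between 3.78 and 20.2).

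The members, the related lists and the rule for named genes (members past the threshold, members of known place, the 3 highest and 3 lowest by TPM, MUC1, and, in each related list, up to 3 rises and 3 falls past the threshold, of which those are given whose call held whichever library was left out) were chosen with earlier results of these data known. Positions and transcripts came from GENCODE 29 (GRCh38).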

Additional observations from a re-analysis of the deposited data

How the results depend on the processing

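Same-numbered libraries did not deviate together (r = -0.0457, -0.123 and -0.0318), beside r from -0.0764 to 0.105 for the other pairs across the groups. No pairing by number was thus seen, but a weak one would not show in 3 libraries a group. With the replicate number as a block, 3158 genes passed, 5 members were lower and 2 higher, and MRPL49 and MRPS21 did not pass. The block left 3 cytosolic ribosomal proteins lower, as did TPM rescaled without short noncoding RNAs. With total counts in place of TMM factors 2 members were higher, and 39.3% of all calls were rises instead of 48.8%.

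The deposited TPM moved all genes down, with medians of -0.27 for log2(TPM + 1) and -0.36 for log2(TPM + 0.1). Short noncoding RNAs held between 34.4% and 62.8% of TPM in the DOX-negative libraries and between 60.5% and 64.4% in the DOX-positive ones. Under these settings 232 and 556 genes passed, with 10.8% and 11.2% rises, and of the members 1 was lower (MRPL42) and 0 higher under both. The medians were -0.34 and -0.36 for the members, -0.33 and -0.34 for mitoribosomal proteins with other names, -0.36 and -0.37 for translation factors, -0.39 and -0.44 for assembly genes, -0.29 and -0.30 for stress genes, -0.43 and -0.44 for cytosolic ribosomal proteins, and -0.39 under both for respiratory chain subunits. Under each of these settings 42 of the 43 members above 0 turned below it. Among the genes covered by the rule for named genes, those that did so, with log2(TPM + 1) first and log2(TPM + 0.1) second, were MRPL15, MRPL30 and NDUFV3 (-0.13 and -0.13), MRPL49 (-0.16 and -0.16), MRPS21 (-0.21 and -0.21), MRPL10 (-0.15 and -0.16), MRPL11 (-0.27 and -0.28), MRPL58 (-0.33 and -0.34), MRPL44 (-0.30 and -0.31), MRPL41 (-0.19 and -0.19), MRPS18B (-0.28 and -0.32), MRPL37 (-0.26 and -0.27), MRPS36 (-0.026 and -0.02), MRPL33 (-0.24 and -0.24), MRPL51 (-0.32 and -0.32), DAP3 (-0.25 and -0.25), AURKAIP1 (-0.33 and -0.34), GADD45GIP1 (-0.27 and -0.28), GFM1 and RPL15 (-0.19 and -0.19), NSUN4 (-0.026 and -0.024), NGRN (-0.14 and -0.14), NDUFV1 (-0.12 and -0.13) and SDHD (-0.17 and -0.17). When these RNAs were taken out and TPM rescaled, the median over all genes was -0.021, 9 members passed (MRPL16 in place of MRPL30), and 43.9% of calls were rises.

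With each library left out in turn, between 2784 and 3645 genes passed, between 4 and 6 members were lower and between 1 and 8 higher. The medians ran from 0.013 to 0.067 for the members, from -0.091 to 0.14 for mitoribosomal proteins with other names, from -0.025 to 0.031 for translation factors, from -0.098 to 0.016 for assembly genes, from 0.045 to 0.14 for stress genes, from -0.072 to -0.025 for cytosolic ribosomal proteins and from -0.029 to 0.033 for respiratory chain subunits. In at least 1 of these fits 18 members crossed 0, of which 0 had been past the threshold. Among the members covered by the rule for named genes these were MRPL12 (-0.13 to 0.06), MRPL58 (-0.0012 to 0.10), MRPL44 (-0.018 to 0.14), MRPS18C (-0.068 to 0.039), MRPS30 (-0.15 to 0.04) and MRPS15 (-0.10 to 0.004), and of the other names AURKAIP1 (-0.11 to 0.14) and GADD45GIP1 (-0.093 to 0.18). Of 1104 values under alternatives, 916 kept their direction and their side of the threshold.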
